A study of Mus musculus with 30 samples.

Results

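The ovarian mRNA of adult female CD1 mice dosed with diisononyl phthalate (DiNP) at 100 µg/kg/day was compared with that of mice dosed at 20 µg/kg/day, both collected 3 months after a treatment of 10 days. The comparison used the 3 libraries labelled 3 months with DiNP 100 and the 3 labelled 3 months with DiNP 20, which are 6 of the 30 libraries of the series. The other libraries come from the same doses collected directly after dosing (0 months), from 2 doses of di(2-ethylhexyl) phthalate and from vehicle controls, with 3 libraries in each of 10 groups of dose and time. CD1 is an outbred stock, each library was made from whole ovary, and as far as the labels go the groups differed in agent, dose and time only. The labels do not state that replicates are separate mice, so the p-values measure the spread between these samples, which may be partly technical.

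DiNP is a plasticizer that leaves soft plastics and enters the body with food and dust, and its breakdown products can act on nuclear receptors such as the peroxisome proliferator-activated receptors. In the ovary, granulosa cells surround the oocyte and make estradiol, theca and interstitial cells make the androgen that estradiol is made from, and the corpus luteum forms after ovulation and makes progesterone. Follicle growth is paced by oocyte factors, by the activins, inhibins and anti-Müllerian hormone of the granulosa cells, and by the gonadotropin receptors.

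No gene passed the test between DiNP 100 and DiNP 20 at 3 months. Of 14740 genes tested, 0 (0%) had an adjusted p under 0.05 (limma over all 30 libraries, Benjamini-Hochberg adjustment), and the lowest adjusted p was 0.405. At an unadjusted p under 0.05 there were 1794 genes (12.2%), of which 879 (5.96%) were higher and 915 (6.21%) lower with DiNP 100. The 3 values with DiNP 100 lay apart from the 3 values with DiNP 20 in 1214 genes (8.24%), 575 of them (3.9%) above and 639 (4.34%) below. The median log2 fold change over all genes was 0.00, and 50.4% of genes had a positive one. All differences below are therefore given as values, on the log2 CPM scale (read counts scaled to library size) as DiNP 100 minus DiNP 20, with the standard error (SE) of the fit.

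DiNP 100 replicate 3 stood apart from the other libraries. On the first principal component of the 6 libraries, which held 41.1% of their variance, it lay at 59.1, while the other 5 lay between -27.9 and 19.5. Its short transcripts were high and its long transcripts low: with genes split into 5 groups of equal size by their longest annotated transcript, the median deviation of the shortest group minus that of the longest was 1.03 on the log2 scale in replicate 3, against 0.20 and -0.13 in DiNP 100 replicates 1 and 2. In the DiNP 20 libraries it was -0.09, -0.14 and -0.12, and in the other 24 libraries it ranged from -0.19 to 0.59. The ribosomal RNA entry Rn45s was at 12.56, 12.10 and 13.77 log2 CPM in the DiNP 100 libraries and at 12.48, 12.13 and 12.15 in the DiNP 20 libraries. On this entry replicate 3 lay within the range of the other 24 libraries, 11.51 to 14.05. A further ribosomal RNA entry, Rn28s1, was at 15.16, 14.92 and 15.97 in the DiNP 100 libraries and at 15.17, 14.95 and 14.75 in the DiNP 20 libraries. On Rn28s1 replicate 3 lay above the range of the other 24 libraries, 14.43 to 15.61. Without DiNP 100 replicate 3, 0 genes passed and 277 (1.88%) had an unadjusted p under 0.05. Without DiNP 100 replicate 1, 0 genes passed and 1864 (12.6%) had an unadjusted p under 0.05. Without DiNP 100 replicate 2, the library of that group with the lowest length contrast, 1336 genes (9.06%) passed, 680 higher (4.61%) and 656 lower (4.45%), and 4151 (28.2%) had an unadjusted p under 0.05.

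The difference between the doses followed transcript length across genes. From the shortest to the longest of the 5 groups, the median log2 fold change was 0.24, 0.10, 0.01, -0.08 and -0.24, and the share of genes with a positive difference was 83.4, 68, 52.5, 34.4 and 15.3%. Across the 13818 genes with a length (93.7% of those tested), Pearson's r between log2 length and log2 fold change was -0.45 and Spearman's rho -0.55; this is a correlation across genes of the same 6 libraries, and genes are not replicates. With the length trend removed from each library, a step chosen after seeing the data, 0 of 13818 genes passed and 810 (5.86%) had an unadjusted p under 0.05. The part of transcript length in any single gene's difference was not tested, so for each gene list with 8 or more tested members the values without replicate 3 and with the length trend removed are given too.

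**Figure D1:**
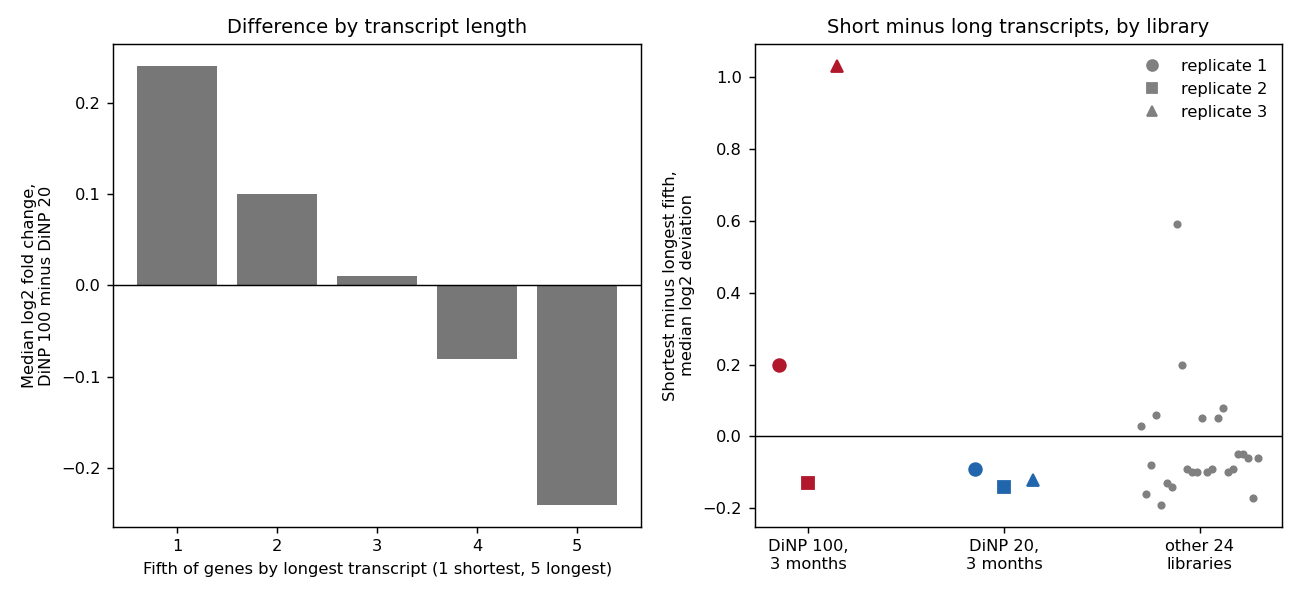
Left, median log2 fold change (DiNP 100 minus DiNP 20, 3 months) of genes in 5 groups of equal size by longest annotated transcript, which goes from 0.24 in the shortest to -0.24 in the longest. Right, median log2 deviation of the shortest minus the longest group in each library, with DiNP 100 replicate 3 at 1.03 and all other libraries at or below 0.59.

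The 12 genes with the smallest p-values among those higher with DiNP 100 had unadjusted p-values of 0.000145 to 0.0013 and each an adjusted p of 0.405 (limma). They were Morn1, Pyurf, Gstp1, Il3ra, Ntpcr, Poll, Thyn1, Abcb4, Tbc1d7, Emid1, Ybey and Gm46386. In all 12 the groups lay apart, so leaving out a library could not change the sign. Without replicate 3 their log2 fold changes ranged from 0.35 to 2.29. All 11 that have an annotated length were also positive with the length trend removed. Without DiNP 100 replicate 2, 10 of the 12 passed, beside 9.06% of all genes, the exceptions being Il3ra and Gm46386. The 12 were chosen on their p-values in these same libraries, so this count follows in part from that choice.

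Gstp1 (chr19:4035411-4037912, GRCm38.p6), a glutathione S-transferase that joins glutathione to reactive molecules, was the named gene with a role in detoxification. It was at 8.08, 7.79 and 8.75 log2 CPM in the DiNP 100 libraries and at 6.73, 7.41 and 7.22 in the DiNP 20 libraries, so that every DiNP 100 library was above every DiNP 20 library. The log2 fold change was 1.09 ± 0.25 (SE, n = 3 libraries each; limma, adjusted p = 0.405). It was 0.82 without DiNP 100 replicate 3 and 0.76 with the length trend removed. The neighbouring and nearly identical Gstp2 was at 2.69, 0.84 and 2.52 log2 CPM in the DiNP 100 libraries and at 1.11, 0.92 and 1.86 in the DiNP 20 libraries; reads can be split between these copies, so the share of each is uncertain. The vehicle libraries at 3 months had Gstp1 at 7.26, 7.44 and 7.47 log2 CPM; their mean lay between those of the doses, while the lowest of them lay below the highest DiNP 20 library.

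The 250 bases before the start of Gstp1 are shown because it had the largest fold change of the named genes of known enzyme function that were measured in all 6 libraries. Those of Cox6a1, a subunit of cytochrome c oxidase, are shown as an example of the mitochondrial genes described below, which carries the motif of NRF1, a transcription factor of nuclear genes for mitochondrial proteins. Both are RefSeq sequences of GRCm38.p6, read 5′ to 3′ on the minus strand, Gstp1 from chr19:4037913-4038162 and Cox6a1 from chr5:115348959-115349208, and capitals mark the motif found.
Gstp1: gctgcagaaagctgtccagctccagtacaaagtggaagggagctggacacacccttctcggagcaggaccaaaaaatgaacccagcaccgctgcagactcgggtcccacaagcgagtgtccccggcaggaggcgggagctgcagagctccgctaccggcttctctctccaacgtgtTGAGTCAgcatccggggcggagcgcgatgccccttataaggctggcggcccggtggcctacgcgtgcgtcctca
Cox6a1: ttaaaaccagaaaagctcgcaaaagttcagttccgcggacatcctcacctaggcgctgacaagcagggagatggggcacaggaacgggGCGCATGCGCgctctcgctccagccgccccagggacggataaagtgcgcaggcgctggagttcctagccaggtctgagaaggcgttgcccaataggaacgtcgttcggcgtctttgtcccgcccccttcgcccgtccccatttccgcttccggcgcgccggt
In Gstp1 the capitals are an AP-1 motif (TGANTCA) whose first base lies 74 bases before the start, and in Cox6a1 2 overlapping matches, 1 on each strand, of an NRF1 core motif (GCATGCGC) that begin 162 bases before it. Windows of 300 bases, 250 before and 50 after the start, were searched on both strands for these motifs and for TGACNNNGC (antioxidant response element), CAAGGTCA (SF-1), TGACGTCA (cAMP response element) and CACGTG (E-box of the clock). Other forms of the antioxidant response element were not searched. The marked Gstp1 stretch, with the gc after it, differs from TGACNNNGC only in the base after TGA. Windows were on hand for 15 of the 24 oxidative phosphorylation genes, and 3 of these 15 (20%), Cox6a1, Uqcrc1 and Sdhb, held the NRF1 motif, against 3.05% of all 27025 genes with a window. The 27025 include genes that were not tested here, so the shares come from unlike sets of genes. Among the 9 named higher and 8 named lower genes with a window, AP-1 was in 1 (11.1%) and 0, against 8.97% of all, and TGACNNNGC in 2 (22.2%) and 2 (25%), against 14% of all. The NRF1 motif was in 1 of the 9 (11.1%) and 1 of the 8 (12.5%), Ntpcr and Vkorc1l1, and CACGTG in 2 (22.2%) and 0, against 8.09% of all. SF-1 and the cAMP response element were in 0 of these 17, against 1.76% and 2.03% of all, and SF-1 in 0 of the 13 steroid synthesis genes with a window. A match in a window does not show that a factor binds there.

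Il3ra (chr14:14345912-14355493), the alpha chain of the interleukin 3 receptor, also had groups that lay apart. It was at 3.80, 4.21 and 3.28 log2 CPM in the DiNP 100 libraries and at 2.60, 2.49 and 2.52 in the DiNP 20 libraries, with a log2 fold change of 1.23 ± 0.30 (SE; limma, adjusted p = 0.405). Without replicate 3, which was the lowest of the DiNP 100 libraries here, it was 1.47. In vehicle libraries it was at 3.53, 3.05 and 3.06 log2 CPM, above all 3 DiNP 20 libraries.

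Morn1, which codes for a protein with MORN repeats, had the smallest p of all genes (0.000145; limma, adjusted p = 0.405). It was at 3.02, 2.64 and 3.02 log2 CPM in the DiNP 100 libraries and at 2.10, 2.27 and 2.13 in the DiNP 20 libraries, a log2 fold change of 0.73 ± 0.16 (SE). The groups lay apart, and the difference was 0.66 without replicate 3 and 0.64 with the length trend removed.

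Tbc1d7, a subunit of the TSC complex that restrains mTORC1, was at 3.73, 3.38 and 3.81 log2 CPM in the DiNP 100 libraries and at 2.88, 3.28 and 3.03 in the DiNP 20 libraries. Its log2 fold change was 0.58 ± 0.15 (SE), and 0.49 without replicate 3. The lowest DiNP 100 library lay close above the highest DiNP 20 library. Poll, a DNA polymerase of base excision and end-joining repair, had a log2 fold change of 0.41 ± 0.10 (SE) with the groups apart, and 0.35 without replicate 3. Ybey, an endoribonuclease that works on mitochondrial ribosomal RNA, had a log2 fold change of 0.79 ± 0.21 (SE) with the groups apart, and 0.76 without replicate 3. Thyn1 had a log2 fold change of 0.58 over all libraries, 0.36 without replicate 3 and 0.29 with the length trend removed. Pyurf shares its transcript with Pigy, and its log2 fold change of 0.40 ± 0.09 (SE) cannot be assigned to either reading frame.

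**Figure D2:**
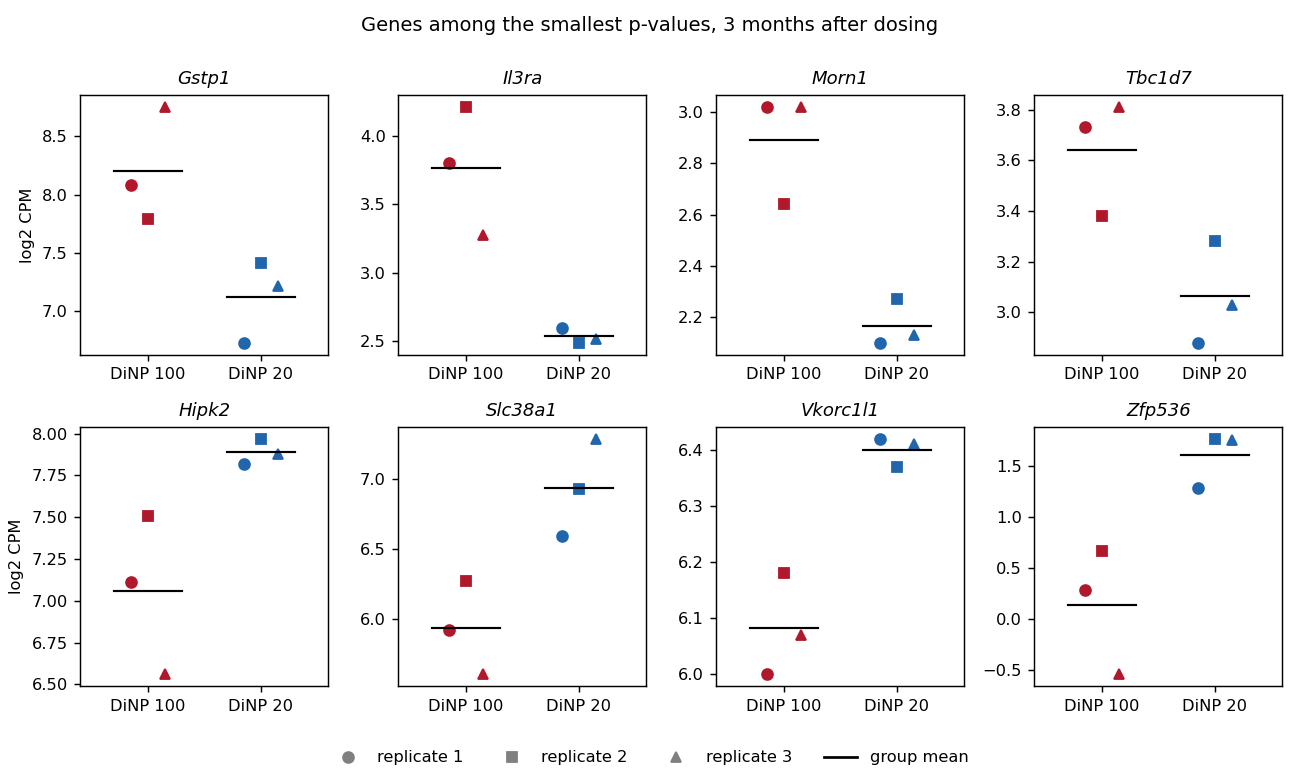
Log2 CPM in each library at 3 months for 4 of the named genes higher and 4 of those lower with DiNP 100; symbols mark the replicate, lines the group mean, and each panel has its own axis. The 3 DiNP 100 values lie apart from the 3 DiNP 20 values in all 8 panels, for Gstp1 between 7.79 and 8.75 against 6.73 to 7.41.

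The 12 genes with the smallest p-values among those lower with DiNP 100 were Vkorc1l1, Gm3264, Hipk2, Zfp442, Zfp536, Ipo9, Rpl14-ps1, Ddx6, Slc38a1, LOC102639700, Gvin1 and Rsc1a1. Their unadjusted p-values were 0.000172 to 0.00133 and each adjusted p was 0.405 (limma). In 11 of the 12 the groups lay apart, so leaving out a library could not change their sign. The exception, Rpl14-ps1, was negative with any of the DiNP 100 libraries left out. All 10 with a length were negative with the length trend removed. Without replicate 2, 10 of the 12 passed, all but LOC102639700 and Rsc1a1, beside 9.06% of all genes. These 12 were chosen on their p-values too, so the count follows in part from that choice.

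Hipk2 (chr6:38687512-38876331), a nuclear kinase of stress and p53 signalling, was at 7.11, 7.51 and 6.56 log2 CPM in the DiNP 100 libraries and at 7.82, 7.97 and 7.88 in the DiNP 20 libraries. All DiNP 100 libraries lay below all DiNP 20 libraries, with a log2 fold change of -0.83 ± 0.20 (SE; limma, adjusted p = 0.405). It was -0.58 without replicate 3, the lowest library, and -0.57 with the length trend removed.

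Slc38a1 (chr15:96571418-96643438), a sodium-coupled transporter of glutamine and other neutral amino acids, was at 5.92, 6.27 and 5.60 log2 CPM in the DiNP 100 libraries and at 6.59, 6.93 and 7.29 in the DiNP 20 libraries. The groups lay apart and the log2 fold change was -1.01 ± 0.27 (SE; limma, adjusted p = 0.405). At 0 months the same contrast gave -0.57 ± 0.27 (SE), and the difference between the times had an unadjusted p of 0.269 (limma).

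Vkorc1l1, a paralogue of the vitamin K epoxide reductase, had the smallest p of the genes with a negative difference. It averaged 6.08 ± 0.09 log2 CPM in the DiNP 100 libraries, with 6.18 the highest, and 6.40 ± 0.03 in the DiNP 20 libraries, with 6.37 the lowest (SD, n = 3 each). The log2 fold change was -0.32 ± 0.07 (SE; limma, adjusted p = 0.405), small beside those of the other named genes, and the spread within each group was small too. Without replicate 3 it was -0.31. Zfp536, a zinc finger repressor studied in neurons, was at 0.29, 0.67 and -0.54 log2 CPM in the DiNP 100 libraries and at 1.29, 1.77 and 1.76 in the DiNP 20 libraries, low in all 6. Ddx6, an RNA helicase of processing bodies, had a log2 fold change of -0.42 ± 0.11 (SE), and -0.28 without replicate 3. Ipo9, a nuclear import receptor, had a log2 fold change of -0.38 ± 0.10 (SE), and -0.24 without replicate 3. The longest transcript of Ddx6 has 6065 bases and that of Ipo9 6247.

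Several named genes were at or near the lowest value of the table, -3.34 log2 CPM, in some libraries and well measured in others. Gvin1 (chr7:106156535-106215340), a very large GTPase inducible by interferon, was at the lowest value in all 3 DiNP 100 libraries and at 4.27, 3.57 and 2.91 log2 CPM in the DiNP 20 libraries. At 3 months 1 vehicle library was also at the lowest value and the others were at 1.71 and 3.26, and 10 of all 30 libraries were at it. The 22 tested interferon-response genes, which do not include Gvin1, had a median log2 fold change of -0.00. Gvin1 belongs to a family of similar copies, between which reads can be split, and no fold is given.

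Hbb-bs (chr7:103826523-103827928), an adult beta-globin gene on the same chromosome as Gvin1, was at -3.34, -3.34 and -2.75 log2 CPM in the DiNP 100 libraries. In the DiNP 20 libraries it was at 4.48, 6.71 and 4.46 (unadjusted p = 0.00704, limma), and it was not among the 24. Its near-identical neighbour Hbb-bt, which was too low on average to be tested, was at -3.34, -2.80 and -3.34 in the DiNP 100 libraries and at 1.91, 4.17 and 2.24 in the DiNP 20 libraries. In the 3 vehicle libraries Hbb-bs was at -3.34, 5.20 and 4.45 log2 CPM. Over the other 24 libraries of the series, which include these, it ranged from -3.34 to 6.59. Its median there was -1.42, and 5 of the 24 were at the lowest value. Hbb-bt had a median of -2.06 in the same libraries, with 11 at the lowest value. Low values of both genes were thus not confined to DiNP 100. The alpha-globin gene Hba-a1, which red cell precursors make with beta-globin, was at 5.82, 5.91 and 7.98 log2 CPM in the DiNP 100 libraries and at 5.92, 7.90 and 5.51 in the DiNP 20 libraries, with the groups overlapping. Alas2, the erythroid enzyme of heme synthesis, was at 1.63, 1.40 and 2.29 in the DiNP 100 libraries and at 0.88, 3.36 and 1.08 in the DiNP 20 libraries, also overlapping. The beta-globin entries thus lay apart between the groups while the other tested red cell genes did not.

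Rpl14-ps1, annotated as a pseudogene of ribosomal protein L14, was at -3.34, 4.23 and -3.34 log2 CPM in the DiNP 100 libraries and at 4.79, 3.58 and 3.86 in the DiNP 20 libraries. Its parent Rpl14 was at 8.51, 8.50 and 9.10 log2 CPM in the DiNP 100 libraries and at 8.31, 8.24 and 8.52 in the DiNP 20 libraries. DiNP 100 replicate 2 was thus like the DiNP 20 libraries for the pseudogene, and reads of parent and copy can be confused. Gm3264, a predicted gene of a repeated family, was at -3.34, 0.18 and -2.43 log2 CPM in the DiNP 100 libraries and at 1.02, 1.19 and 2.71 in the DiNP 20 libraries.

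Abcb4 (chr5:8893614-8959226), which carries phosphatidylcholine into bile and has the drug pumps Abcb1a and Abcb1b as close relatives, ran the other way. It was at 4.63, 0.65 and 4.94 log2 CPM in the DiNP 100 libraries and at 0.35, 0.12 and 0.59 in the DiNP 20 libraries, so replicates 1 and 3 stood far above replicate 2. The log2 fold change was 3.05 ± 0.81 (SE; limma, adjusted p = 0.405), with the vehicle libraries at 0.33, 0.23 and 0.11. Abcb1b was at 11.12, 10.18 and 10.44 log2 CPM in the DiNP 100 libraries and at 10.59, 9.80 and 9.67 in the DiNP 20 libraries, with overlap. Over the whole table, 3 genes were at the lowest value in all DiNP 100 libraries and above it in all DiNP 20 libraries, and 0 the other way round. Only 1 of the 3, Gvin1, was above 1 CPM in all DiNP 20 libraries. LOC105246900 and Speer4c were between -2.61 and -0.30 log2 CPM there and were not tested. The DiNP 100 libraries had 167, 126 and 187 genes at the lowest value, and the DiNP 20 libraries 148, 85 and 116.

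**Figure D3:**
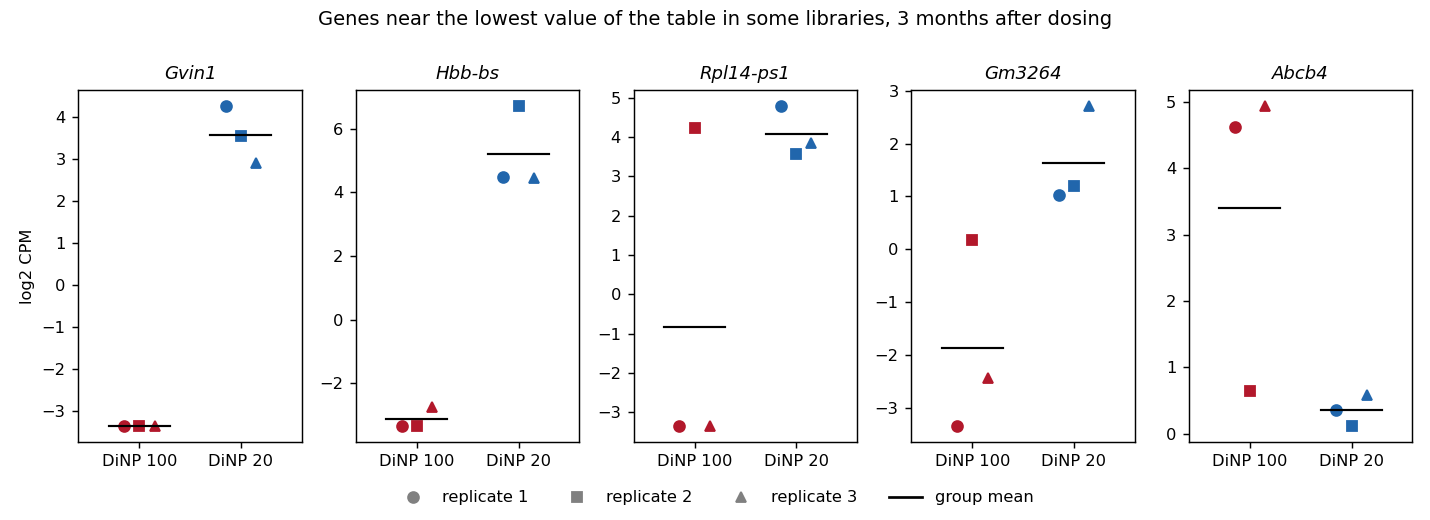
Log2 CPM in each library at 3 months for 5 genes that sat at or near the lowest value of the table in some libraries; symbols mark the replicate and lines the group mean. Gvin1 was at -3.34 in all DiNP 100 libraries, while DiNP 100 replicate 2 was with the DiNP 20 libraries for Rpl14-ps1 (4.23) and near them for Abcb4 (0.65).

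In a panel of 16 genes of ovarian function, 15 overlapped between the doses, and over all genes the groups lay apart in 8.24%. None of the 16 passed, with adjusted p-values from 0.405 to 0.999 (limma). Of the 16, 6 had a positive and 9 a negative difference, and Hsd17b1 was at 0.00. Inhba (chr13:16004256-16031609), the beta-A subunit of activin A and inhibin A made by granulosa cells of growing follicles, had the smallest p of the panel. It was at 6.40, 7.26 and 5.49 log2 CPM in the DiNP 100 libraries and at 6.80, 7.91 and 7.90 in the DiNP 20 libraries. The lowest DiNP 20 library lay within the DiNP 100 range, and the log2 fold change was -1.15 ± 0.42 (SE; unadjusted p = 0.0121, adjusted p = 0.405, limma). It was -0.70 without replicate 3, -1.59 without replicate 2, where it passed with an adjusted p of 0.035 (limma), and -0.94 with the length trend removed. Its partner subunit Inha was at 9.95, 10.46 and 10.86 log2 CPM in the DiNP 100 libraries and at 10.03, 10.29 and 10.73 in the DiNP 20 libraries, a difference of 0.08 ± 0.27 (SE).

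The steroidogenic genes of the panel overlapped between the groups. Star, which moves cholesterol into mitochondria and sets the pace of steroid synthesis, was at 13.22, 12.28 and 13.04 log2 CPM in the DiNP 100 libraries and at 12.92, 12.80 and 11.63 in the DiNP 20 libraries, a difference of 0.40 ± 1.36 (SE). Cyp11a1, which makes pregnenolone from cholesterol, differed by 0.42 ± 0.75 and Hsd3b1, which makes progesterone, by 0.44 ± 0.34 (SE). Cyp17a1, the androgen-forming enzyme of theca cells, was at 6.95, 8.13 and 9.45 log2 CPM in the DiNP 100 libraries and at 9.04, 8.54 and 9.78 in the DiNP 20 libraries, a difference of -0.94 ± 1.01 (SE). Cyp19a1, the aromatase that makes estradiol, was at 4.49, 2.95 and 5.36 log2 CPM in the DiNP 100 libraries and at 2.88, 4.70 and 5.38 in the DiNP 20 libraries, a difference of -0.05 ± 0.85 (SE). The SE of Star comes from the spread pooled over all 10 groups. A 2-fold difference, 1 on the log2 scale, would lie within this SE of 1.36. The SD of Star was 0.50 with DiNP 100 and 0.71 with DiNP 20. It was 1.55 in vehicle at 3 months and 1.73 in DiNP 100 at 0 months.

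The receptors and follicle factors gave small differences. The gonadotropin receptors Fshr and Lhcgr differed by -0.07 ± 0.34 and 0.35 ± 0.72, and the estrogen receptors Esr1 and Esr2 by -0.26 ± 0.23 and -0.42 ± 0.42 (SE). Esr1 was at 5.76, 5.80 and 5.43 log2 CPM in the DiNP 100 libraries and at 5.89, 6.05 and 5.83 in the DiNP 20 libraries. It was the 1 gene of the panel whose groups lay apart (unadjusted p = 0.278, limma), beside 4.34% of all genes apart in that direction. Amh, the anti-Müllerian hormone that restrains follicle recruitment, differed by -0.27 ± 0.38, and the oocyte growth factors Gdf9 and Bmp15 by 0.13 ± 0.36 and -0.21 ± 0.39 (SE). Kitl, the granulosa ligand of the oocyte receptor Kit, was at 4.49, 4.48 and 6.18 log2 CPM in the DiNP 100 libraries and at 6.61, 4.93 and 4.95 in the DiNP 20 libraries, with 1 high library in each group.

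**Figure D4:**
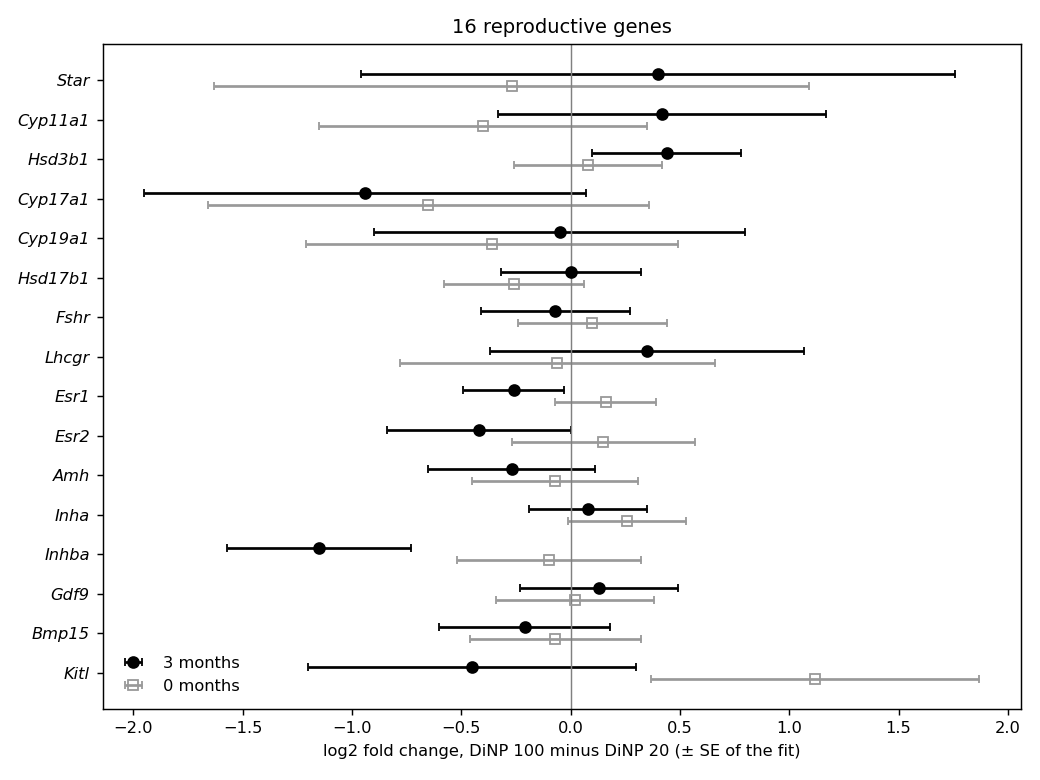
Log2 fold change (DiNP 100 minus DiNP 20, with the SE of the fit) of 16 reproductive genes at 3 months (black circles) and at 0 months (grey squares). Inhba, at -1.15 at 3 months and -0.10 at 0 months, is farthest from 0 at 3 months relative to its SE.

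The ovary's cell types were read through marker lists, and in whole ovary fewer cells of a type and less RNA per cell cannot be told apart. Oocyte, granulosa, theca and luteal markers were all detected in the 6 libraries, as the tissue label says. Granulosa cell markers had 17 of 20 tested members below zero, with a median log2 fold change of -0.23 beside 0.00 over all genes. At an unadjusted p under 0.05, 1 of the 20, Inhba, was lower, beside 6.21% of all genes in that direction, and 0 without replicate 3. Their mean level was 6.42, 6.65 and 6.79 log2 CPM in the DiNP 100 libraries and 6.62, 6.68 and 7.17 in the DiNP 20 libraries, which overlap. The list's median was -0.29 without replicate 3 and -0.23 with the length trend removed. Without replicate 1 it was -0.16, with 12 of 20 below zero.

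Corpus luteum markers went the other way, with 10 of 11 tested members above zero and a median of 0.35. None of the 11 had an unadjusted p under 0.05. Their mean level was 10.55, 9.40 and 9.88 log2 CPM in the DiNP 100 libraries and 9.92, 9.91 and 9.08 in the DiNP 20 libraries, so the highest library was replicate 1 of DiNP 100 and the lowest replicate 3 of DiNP 20. The median was 0.30 without replicate 3 and 0.26 with the length trend removed, and without DiNP 100 replicate 1 it was 0.09 with 6 of 11 above zero. Scarb1, the receptor that takes up cholesterol from high-density lipoprotein, was at 11.82, 10.74 and 12.30 log2 CPM in the DiNP 100 libraries and at 11.51, 11.48 and 10.20 in the DiNP 20 libraries. Bhmt was at 7.24 in DiNP 100 replicate 1 and between 2.83 and 5.09 in the other 5 libraries.

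Oocyte markers had 18 of 30 members above zero with a median of 0.07, and the direction turned with the processing. Without replicate 3 the median was -0.10 with 24 of 30 below zero, and with the length trend removed -0.15 with 27 of 30 below. Without replicate 1 it was 0.32 with 25 of 30 above zero, and without replicate 2 it was -0.10. Kit, the receptor of the oocyte and of theca cells, was at 5.09, 5.73 and 5.28 log2 CPM in the DiNP 100 libraries and at 6.04, 5.79 and 6.39 in the DiNP 20 libraries, apart but with an unadjusted p of 0.0852 (limma). Theca and interstitial markers had 8 of 12 below zero with a median of -0.15, which was -0.17 without replicate 3 and -0.14 with the length trend removed. It was -0.33 without replicate 2 and -0.09, with 6 of 12 below zero, without replicate 1. Among them Hhip, a target and inhibitor of hedgehog signals, was at 3.36, 4.03 and 3.59 log2 CPM in the DiNP 100 libraries and at 3.83, 4.86 and 4.74 in the DiNP 20 libraries (unadjusted p = 0.0442, limma).

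Among the 16 tested vessel markers, 1 was higher and 1 lower at an unadjusted p under 0.05, beside 5.96% and 6.21% of all genes. Lyve1, a hyaluronan receptor of lymphatic vessels, was at 2.53, 2.50 and 2.26 log2 CPM in the DiNP 100 libraries and at 3.40, 3.13 and 3.43 in the DiNP 20 libraries. The groups lay apart, with a log2 fold change of -0.89 ± 0.32 (SE; unadjusted p = 0.0111, limma), -0.81 without replicate 3 and -0.95 with the length trend removed. Plvap, which forms the diaphragms of fenestrated capillaries, was at 3.94, 4.12 and 4.71 log2 CPM in the DiNP 100 libraries and at 3.52, 3.71 and 3.57 in the DiNP 20 libraries, a log2 fold change of 0.66 ± 0.23 (SE; unadjusted p = 0.00988, limma). The list as a whole had a median of 0.07 with 9 of 16 above zero, which was -0.01 without replicate 3 and 0.06 with the length trend removed. Muc16, a mucin of the ovarian surface and mesothelium, was at 1.99, 3.12 and 1.34 log2 CPM in the DiNP 100 libraries and at 3.38, 3.81 and 3.02 in the DiNP 20 libraries, a log2 fold change of -1.26 ± 0.38 (SE; unadjusted p = 0.00301, limma). It was -0.85 without replicate 3 and -0.67 with the length trend removed, and its list had a median of -0.02, which was -0.04 with either step.

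Macrophage markers had a median of 0.01 with 11 of 20 above zero, which was -0.03 without replicate 3 and -0.16, with 16 of 20 below zero, with the length trend removed. Smooth muscle and pericyte markers had a median of 0.02 with 7 of 12 above zero, which was 0.02 without replicate 3 and 0.01 with the length trend removed. Adipocyte markers, which mark the fat around the ovary, had 7 of 8 below zero and a median of -0.40 but varied widely, at 1.40, 3.72 and 2.32 log2 CPM in the DiNP 100 libraries and 2.06, 4.61 and 1.77 in the DiNP 20 libraries. Their median was -0.22 without replicate 3 and -0.57 with the length trend removed, and its direction turned on 1 library: without replicate 1 it was 0.23 with 5 of 8 above zero, and without replicate 2 it was -1.29. Markers of oviduct and motile cilia had a median of 0.03 (0.47 without replicate 3 and 0.14 with the length trend removed) and were at 1.03, 1.78 and 0.99 in the DiNP 100 libraries and at 1.01, 1.47 and 0.82 in the DiNP 20 libraries. Few members were high enough to test in the lists of T, B and NK cells (2 of 12, median -0.11), exocrine pancreas (2 of 6, median 0.30), skeletal muscle (1 of 6, 0.06) and erythrocytes (4 of 5, median 0.06).

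A one-sided pattern was seen in the genes of oxidative phosphorylation, the chain of complexes by which mitochondria make ATP. All 24 tested members were above zero, with a median log2 fold change of 0.32, and 6 of them (25%) had an unadjusted p under 0.05 beside 5.96% of all genes in that direction. Their mean level was 7.25, 6.92 and 7.76 log2 CPM in the DiNP 100 libraries and 7.07, 6.99 and 6.90 in the DiNP 20 libraries, so replicate 3 was highest and replicate 2 lay within the DiNP 20 range. Without replicate 3 the median was 0.08 with 22 of 24 above zero and 0 at an unadjusted p under 0.05, and with the length trend removed it was 0.06 with 18 of 24. The median of their longest transcripts was 1591 bases, against 3448 over all genes. Against vehicle at 3 months, the median was 0.28 for DiNP 100 and -0.05 for DiNP 20; the 2 comparisons share the vehicle libraries.

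Within that list, Ndufb8, a subunit of complex I, was at 6.91, 6.57 and 7.24 log2 CPM in the DiNP 100 libraries and at 6.59, 6.45 and 6.26 in the DiNP 20 libraries. Its log2 fold change of 0.48 ± 0.18 (SE; unadjusted p = 0.0159, limma) was 0.31 without replicate 3 and 0.34 with the length trend removed. Sdhc, a membrane subunit of complex II, was at 6.94, 6.76 and 7.36 log2 CPM in the DiNP 100 libraries and at 6.73, 6.76 and 6.66 in the DiNP 20 libraries, a log2 fold change of 0.30 ± 0.11 (SE; unadjusted p = 0.0131, limma) that was 0.13 without replicate 3. Uqcrq of complex III had the largest value, 0.62 ± 0.33 (SE), and Uqcrc2 the smallest, 0.02 ± 0.09 (SE). Cox6a1, whose promoter is printed above, was at 7.75, 7.23 and 8.50 log2 CPM in the DiNP 100 libraries and at 7.50, 7.33 and 7.22 in the DiNP 20 libraries.

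Ribosomal protein genes, short transcripts of the translation machinery, had 29 of 30 members above zero and a median of 0.24. It was 0.03 without replicate 3 and -0.03 with the length trend removed, and the mean level was 8.42, 8.40 and 9.12 log2 CPM in the DiNP 100 libraries and 8.42, 8.19 and 8.53 in the DiNP 20 libraries. Antioxidant enzymes had 20 of 24 above zero and a median of 0.20, which was 0.07 without replicate 3 and 0.10 with the length trend removed. Among them Prdx2, a peroxiredoxin that removes hydrogen peroxide, was at 8.91, 8.48 and 9.36 log2 CPM in the DiNP 100 libraries and at 8.60, 8.43 and 8.17 in the DiNP 20 libraries (unadjusted p = 0.0428, limma). Hmox1, the stress-inducible heme oxygenase, went the other way, at 6.77, 6.53 and 7.05 log2 CPM in the DiNP 100 libraries and at 7.18, 7.45 and 7.80 in the DiNP 20 libraries. Its groups lay apart, with a log2 fold change of -0.69 ± 0.42 (SE; unadjusted p = 0.117, limma) and -0.83 without replicate 3.

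Genes of cholesterol synthesis and uptake had 19 of 23 members above zero and a median of 0.23. Unlike the lists of short transcripts, the median was 0.30 with the length trend removed, with 22 of 23 above zero, and 0.13 without replicate 3. None of the 23 had an unadjusted p under 0.05, and the libraries varied widely. Fdps, which makes farnesyl diphosphate, was at 10.01, 8.38 and 10.47 log2 CPM in the DiNP 100 libraries and at 9.28, 9.32 and 7.96 in the DiNP 20 libraries. Abca1, which exports cholesterol, was at 7.84, 8.42 and 7.24 log2 CPM in the DiNP 100 libraries and at 8.49, 8.02 and 8.84 in the DiNP 20 libraries. The list of steroid synthesis had a median of -0.00 with 9 of 19 above zero, and 0.12 without replicate 3 and 0.03 with the length trend removed.

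Several lists of signalling and regulatory genes had medians below zero. The PI3K pathway of follicle activation, which releases primordial follicles from rest, had 19 of 22 members below zero and a median of -0.22, which was -0.08 without replicate 3 and -0.02 with the length trend removed. Rictor, a core protein of mTORC2, was at 5.57, 5.92 and 4.58 log2 CPM in the DiNP 100 libraries and at 5.92, 6.05 and 6.02 in the DiNP 20 libraries, with replicate 3 far the lowest. The inhibin, activin and AMH list had 15 of 18 below zero and a median of -0.25. At an unadjusted p under 0.05, 3 of the 18 were lower, namely Inhba, Acvr1b and Bmpr1a, beside 6.21% of all genes, and 0 of the 18 without replicate 3. Its median was -0.14 without replicate 3 and -0.15 with the length trend removed. Acvr1b, a type I activin receptor, was at 4.07, 4.65 and 3.24 log2 CPM in the DiNP 100 libraries and at 4.39, 4.53 and 4.53 in the DiNP 20 libraries, so replicate 2 lay above all DiNP 20 libraries.

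Genes of DNA methylation had 11 of 14 members below zero and a median of -0.25. At an unadjusted p under 0.05, 1 of the 14 was higher and 3 were lower, beside 5.96% and 6.21% of all genes. Without replicate 3, and likewise with the length trend removed, 0 of the 14 were under it. Tet2, which oxidises methylated cytosine, was at 4.69, 5.16 and 3.49 log2 CPM in the DiNP 100 libraries and at 5.03, 5.15 and 5.02 in the DiNP 20 libraries, so replicate 3 was low while replicate 2 lay just above the DiNP 20 libraries. The list's median was -0.12 without replicate 3 and -0.11 with the length trend removed. Steroid receptors had 7 of 9 below zero and a median of -0.24, which was -0.11 without replicate 3 and -0.06 with the length trend removed; the median of their longest transcripts was 5916 bases. Among them was Nr3c2, the mineralocorticoid receptor, at 2.95, 2.92 and 1.99 log2 CPM in the DiNP 100 libraries and at 3.16, 3.26 and 3.43 in the DiNP 20 libraries.

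The unfolded protein response, by which cells adjust protein folding in the endoplasmic reticulum, had 20 of 25 members below zero and a median of -0.16. This median was -0.22 without replicate 3 and -0.21 with the length trend removed, but -0.05 without replicate 1, with 12 members above and 13 below zero, so the one-sided count was not seen without that library. Dnajc3, a co-chaperone that also restrains the kinase PERK, was at 7.76, 8.05 and 7.93 log2 CPM in the DiNP 100 libraries and at 8.32, 8.16 and 8.40 in the DiNP 20 libraries. The groups lay apart, with a log2 fold change of -0.38 ± 0.12 (SE; unadjusted p = 0.00436, limma) and -0.39 without replicate 3. Canx, the lectin chaperone calnexin, was at 9.17, 9.35 and 9.23 log2 CPM in the DiNP 100 libraries and at 9.49, 9.42 and 9.51 in the DiNP 20 libraries, a log2 fold change of -0.23 ± 0.10 (SE). The mean level of the list overlapped, at 7.01, 7.39 and 7.25 log2 CPM in the DiNP 100 libraries and 7.27, 7.04 and 7.76 in the DiNP 20 libraries.

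PPAR and fatty acid oxidation genes, which phthalate metabolites are known to induce in rodent liver, had a median of -0.06 with 9 of 20 above zero, which was -0.12 without replicate 3, -0.05 with the length trend removed and 0.05 without replicate 2. Ppara itself was at 3.97, 4.69 and 3.86 log2 CPM in the DiNP 100 libraries and at 4.82, 4.56 and 5.27 in the DiNP 20 libraries, a log2 fold change of -0.71 ± 0.30 (SE; unadjusted p = 0.0282, limma). Genes of the dioxin receptor and of xenobiotic metabolism had 9 of 14 below zero and a median of -0.12, which was -0.19 without replicate 3 and -0.20 with the length trend removed; Gstp1 was the highest. Tiparp, a target of the dioxin receptor, was at 6.36, 6.73 and 5.98 log2 CPM in the DiNP 100 libraries and at 6.89, 6.80 and 6.85 in the DiNP 20 libraries, a log2 fold change of -0.49 ± 0.19 (SE) that was -0.30 without replicate 3.

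Immune lists had medians at or below zero over all 6 libraries. Complement genes had 12 of 17 below zero and a median of -0.14, which was -0.15 without replicate 3 and -0.19 with the length trend removed. C7, a part of the membrane attack complex, was at 1.45, 2.52 and 2.49 log2 CPM in the DiNP 100 libraries and at 2.64, 3.46 and 3.93 in the DiNP 20 libraries. C5ar1, the receptor of the C5a fragment, was at 1.34, 2.01 and 1.53 in the DiNP 100 libraries and at 2.54, 2.17 and 2.36 in the DiNP 20 libraries. Interferon-response genes had 11 of 22 above zero and a median of -0.00, which was -0.01 without replicate 3 and -0.10 with the length trend removed, but -0.39 without replicate 1 and 0.41 without replicate 2. MHC genes had 12 of 16 below zero and a median of -0.16, with their mean level at 7.26, 5.56 and 6.45 log2 CPM in the DiNP 100 libraries and 7.06, 6.39 and 5.90 in the DiNP 20 libraries. The MHC median was -0.17 without replicate 3 and -0.33 with the length trend removed, and its direction turned on 1 library: without replicate 2 it was 0.29 with 15 of 16 above zero, and without replicate 1 it was -0.55.

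The remaining lists had medians within 0.2 of zero over all 6 libraries. Proliferation genes had 23 of 30 below zero and a median of -0.12, which was -0.08 without replicate 3, -0.15 with the length trend removed and -0.04 without replicate 1. Among them was Ccnd2, the cyclin of granulosa cell division, at 7.23, 7.52 and 6.76 log2 CPM in the DiNP 100 libraries and 7.35, 7.39 and 8.14 in the DiNP 20 libraries. Extracellular matrix genes had a median of -0.02, which was 0.04 without replicate 3 and 0.17, with 23 of 31 above zero, with the length trend removed. Heat shock genes had a median of 0.05, which was -0.18 without replicate 3, with 13 of 15 below zero, and -0.09 with the length trend removed. Genes of ovulation and cumulus expansion had a median of -0.18, which was -0.04 without replicate 3 and -0.05 with the length trend removed. Immediate early genes also had -0.18, which was -0.03 without replicate 3 and -0.21 with the length trend removed, and 0.08 without replicate 1. Circadian clock genes had -0.15, which was -0.04 without replicate 3 and -0.03 with the length trend removed. The BCL2 family had 8 of 16 above zero and 8 below. Its median was 0.01, which was -0.07 without replicate 3 and -0.05 with the length trend removed. At an unadjusted p under 0.05, 2 of the 16 were higher and 1 lower, beside 5.96% and 6.21% of all genes. Without replicate 3, 0 were under it, and with the length trend removed 0 were higher and 1 lower. The pro-death members Bax and Bad were at 0.38 ± 0.18 and 0.46 ± 0.21 (SE), and at 0.12 and 0.21 without replicate 3. Over the 580 different genes of all 36 lists that were tested, 43 (7.41%) had an unadjusted p under 0.05, 17 higher and 26 lower, beside 12.2% of all genes, and without replicate 3 there were 9.

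**Figure D5:**
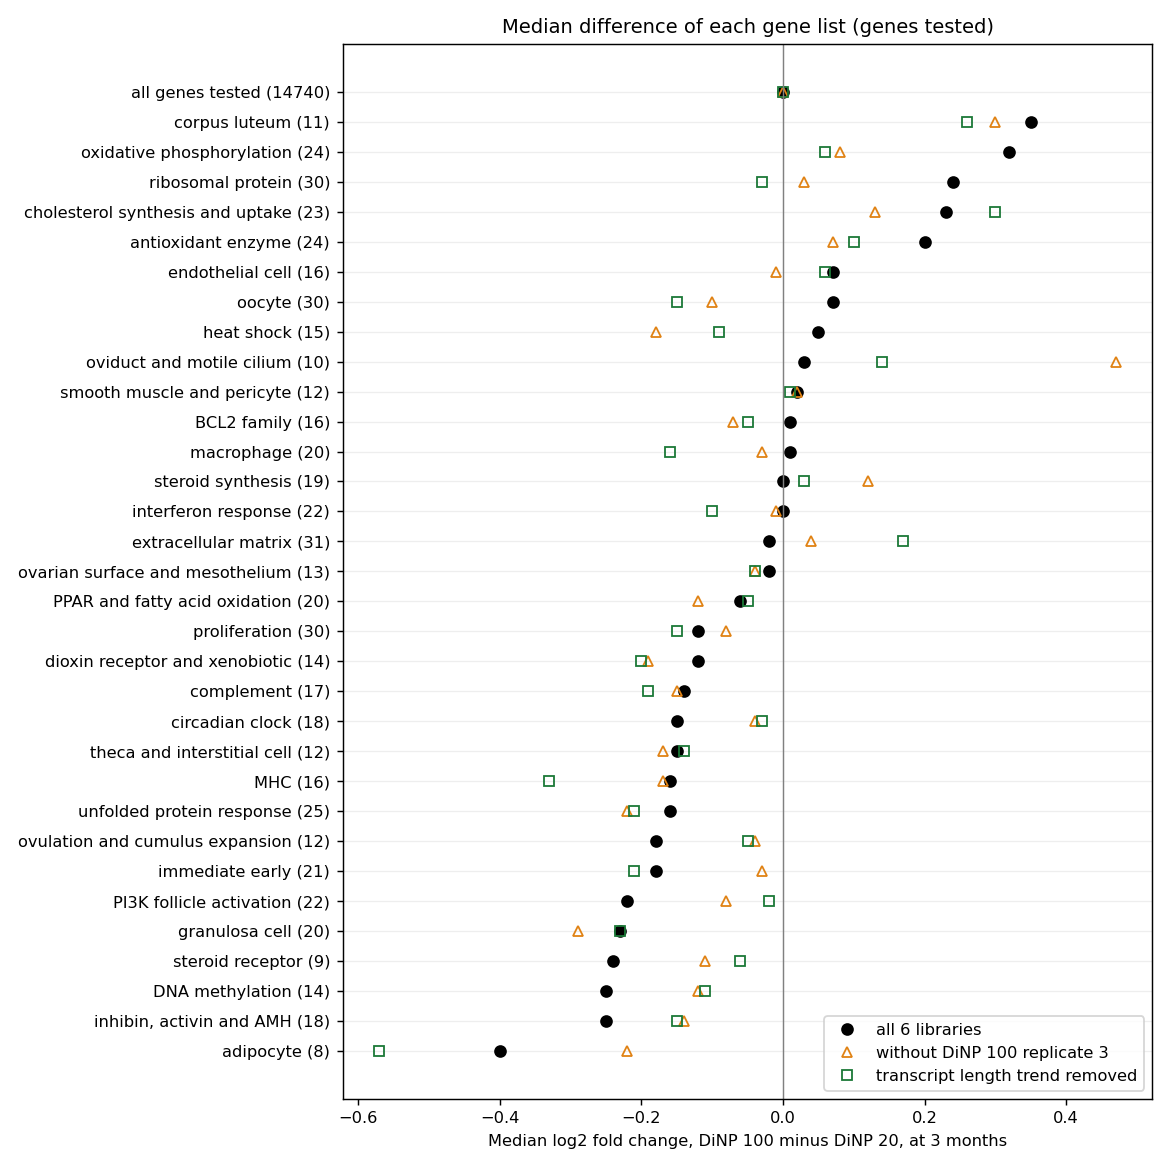
Median log2 fold change (DiNP 100 minus DiNP 20, 3 months) of the 32 gene lists with 8 or more tested members, over all 6 libraries (black), without DiNP 100 replicate 3 (orange) and with the length trend removed (green). Without that replicate oxidative phosphorylation is at 0.08, ribosomal protein genes at 0.03, corpus luteum at 0.30 and granulosa cell at -0.29. Without DiNP 100 replicate 1, which is not drawn, corpus luteum was at 0.09 and granulosa cell at -0.16.

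Between the same doses at 0 months 0 of 14740 genes passed (limma), as at 3 months. At an unadjusted p under 0.05 there were 1794 genes at 3 months, 277 without DiNP 100 replicate 3, and 86 (0.583%) at 0 months. The test of the difference between the times itself also passed 0 genes, with 483 (3.28%) at an unadjusted p under 0.05 and a lowest adjusted p of 0.909. Of the 12 named higher genes 5 had a positive difference at 0 months, and of the 12 named lower genes 9 a negative one. For Gstp1 the value at 0 months was 0.26 ± 0.25 (SE), and the difference between the times had an unadjusted p of 0.0282 (limma). For Il3ra it was -0.14 ± 0.30 (SE), with an unadjusted p of 0.00326 for the difference, and for Inhba -0.10 ± 0.42 (SE), with 0.0924. Since the named genes were chosen on their 3-month difference, these p-values are a description.

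Against the vehicle libraries at 3 months, 0 genes passed for either dose (limma). At an unadjusted p under 0.05 there were 1368 genes (9.28%) for DiNP 100 and 224 (1.52%) for DiNP 20, and both comparisons share the vehicle libraries. The vehicle mean lay between the DiNP 100 and DiNP 20 means in 10 of the 12 named higher genes and in all 12 named lower genes. The named genes were chosen on their difference between the doses, so a vehicle mean between them follows in part from that choice. The share over all genes was not counted. Hipk2, for example, was at 7.89, 7.58 and 7.79 log2 CPM in the vehicle libraries, and its log2 fold change against vehicle was -0.69 for DiNP 100 and 0.14 for DiNP 20. Inhba was at 7.95, 7.69 and 7.69 in the vehicle libraries, with -1.39 for DiNP 100 and -0.24 for DiNP 20. Without DiNP 100 replicate 2, 633 genes passed between DiNP 100 and vehicle.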

How the data were processed

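Poly(A) mRNA of whole ovary was sequenced from 1 end of each fragment on 1 lane of a HiSeq instrument after RNeasy extraction and a TruSeq stranded kit, per the labels' protocols. The submitters' processing notes name FastQC 0.11.8, Salmon 0.11.3, edgeR, R 3.5.2 and GRCm38.p6. The authors deposited log2 CPM for 18022 genes in 30 libraries, with a lowest value of -3.343. Only 13.9 to 31.3% of low values came out within 0.05 of whole reads, against 10% by chance, so counts and depth were not recovered. Relative to a count table, this leaves the precision of each low value unknown.

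The 14740 genes whose log2 CPM averaged above 0 went into limma 3.58.1 in R 4.3.3, with 1 mean for each of 10 groups over all 30 libraries, a mean-dependent prior, two-sided p-values and Benjamini-Hochberg adjustment; passed means an adjusted p under 0.05. The script was tested on simulated data. Named genes are the 12 smallest p in each direction, a panel of 16 reproductive genes and, for each of 36 lists, the 2 highest and 2 lowest fold changes and members with an unadjusted p under 0.05; Cox6a1, Hbb-bt, Gstp2, Rpl14 and Rn45s were added after their values were seen. Not every gene that this rule selects is reported here. Rn28s1 was also added after its values were seen. The members and lists were chosen with earlier results of these data known. Lists are described by counts and medians, with no set test. Transcript lengths are the longest transcript per gene of GENCODE M21; promoters and positions are RefSeq. Same-numbered libraries of DiNP 100 and DiNP 20 deviated together with correlations of 0.20, -0.09 and -0.02, so numbers were not treated as pairs. Alternatives were another scaling, filter and pseudocount, fewer libraries, a replicate block, array weights, each library left out, and removal of the length trend by lowess (span 0.3).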

Additional observations from a re-analysis of the deposited data

How the results depend on the processing

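The count of 0 genes that passed between DiNP 100 and DiNP 20 at 3 months held under median centring, quantile normalization, no filter, a filter above 2, a pseudocount of 1, the 15 libraries of the time point and the replicate block, and after removal of the length trend. It was 2 (Gvin1 and Hbb-bs, both on chromosome 7) in a fit of the 6 compared libraries alone and 1 (Gm3264, -4.17) with array weights. Gvin1 and Hbb-bs were also both at the lowest value in vehicle replicate 1 at 3 months. Whether these 2 genes vary independently was not tested. With 1 library left out the count of genes that passed ranged from 0 to 1336, the highest without DiNP 100 replicate 2. The count at an unadjusted p under 0.05, 1794, was 340 with the 6 libraries alone, 1186 with the libraries of the time point and 810 with the length trend removed; with 1 library left out it ranged from 277 (without DiNP 100 replicate 3) to 4151 (without DiNP 100 replicate 2), and it was 1118 without DiNP 20 replicate 3. The replicate block gave 0 passing genes and 1566 at an unadjusted p under 0.05; it changed no call, and the numbers do not pair the samples. DiNP 100 against vehicle ranged from 0 to 633 passing genes with 1 library left out, the most without DiNP 100 replicate 2, and DiNP 20 against vehicle had 3 with array weights. The fit of the time point's libraries was not run for the difference between times. The cause of these changes was not tested.

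Among the 24 genes with the smallest p, none changed sign. In those whose groups lay apart, leaving out a library could not change it. Without DiNP 100 replicate 2, 20 of the 24, which were chosen on their p-values, and Inhba passed, beside 9.06% of all genes. List medians moved by more than the spread between replicates in 9 cases across settings and in 5 with a library left out. Several list medians changed sign with 1 DiNP 100 library left out or the length trend removed, among them those of oocyte, adipocyte, interferon-response, MHC, heat shock and extracellular matrix genes, as given beside each list. Panel genes that did not pass changed sign too. Quantile normalization turned Hsd3b1 to -0.09 and Inha to -0.02; array weights turned Cyp19a1 to 0.27, Inha to -0.17 and Gdf9 to -0.11; removal of the length trend turned Inha to -0.15 and Gdf9 to -0.05. With 1 library left out, Star, Cyp19a1, Hsd17b1, Fshr, Lhcgr, Amh, Inha, Gdf9, Bmp15 and Kitl also changed sign. Their ranges were Star -0.01 to 0.68, Cyp19a1 -0.77 to 0.61, Hsd17b1 -0.33 to 0.23, Fshr -0.23 to 0.16, Lhcgr -0.03 to 0.55, Amh -0.47 to 0.04, Inha -0.14 to 0.31, Gdf9 -0.06 to 0.39, Bmp15 -0.49 to 0.09, Kitl -1.01 to 0.11. The depth is unknown, so no limit that depth sets is given.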
